A study of Homo sapiens with 6 samples.

Results

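The miR-181 family was examined in small RNA libraries of extracellular vesicles (exosomes) from MHCC97H cells, an established human line of liver cancer selected for frequent metastasis. Its members were the rows of the count table whose name, without the arm and a precursor copy number, was miR-181a, miR-181b, miR-181c or miR-181d. This gave 5 of 1007 rows, hsa-miR-181a-5p, hsa-miR-181b-5p, hsa-miR-181d-5p, hsa-miR-181a-3p and hsa-miR-181a-2-3p (written without hsa- from here on), and no row for miR-181c was among those analysed here. Of the 1007 rows, 497 had known human names and 510 were predicted sequences. Unless known names are specified, miRNA counts and shares of tested miRNAs below include both kinds. There were 3 libraries from cells exposed for 24 h to xanthatin, a plant sesquiterpene lactone, at 4 µmol/L, and 3 from control cells. Per the labels' protocols, DMSO was at 0.5% in all experiments, and the medium of all cells held 5% fetal bovine serum together with 5% serum freed of exosomes. All cells came from the 1 line, and the labels do not say whether the 3 libraries of a group came from separate cultures, so p-values measure the spread between these libraries, which may be technical.

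A miRNA guides the silencing complex to messenger RNAs mainly through its seed, bases 2 to 8 from its 5′ end. Both arms of a precursor hairpin can yield a mature miRNA, and in the miR-181 family the 5p arm is usually the more abundant. The family is known for tuning the antigen sensitivity of T cells and for its link to stem-like cells in hepatocellular carcinoma, where miR-181 has been described to target regulators of hepatocyte differentiation.

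The 5p arms carry the family's common seed, shown in capitals. The sequences are those of RefSeq (GRCh38.p14), and all 5 rows matched an entry.
miR-181a-5p: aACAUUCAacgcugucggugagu
miR-181b-5p: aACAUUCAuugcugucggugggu
miR-181d-5p: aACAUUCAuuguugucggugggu
miR-181c-5p: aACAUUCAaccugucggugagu

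With positions counted from 1 at the 5′ end, miR-181a-5p and miR-181b-5p differ by A9U, C10U and A21G, all outside the seed. miR-181b-5p and miR-181d-5p differ by C12U alone. miR-181c-5p, printed because it is 1 edit away from miR-181a-5p, is 1 base shorter. Near-identical members such as these may share reads, and how the authors' counting treated them is not given in the sources used here. Of the 2370 mature names in the RefSeq table, 5 had this seed, and the one outside the family, miR-4262, had no row.

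The 3p arms have seeds of their own, and those of the miR-181a precursors differ between the loci by U5C, C6U and U16C, from miR-181a-3p to miR-181a-2-3p.
miR-181a-3p: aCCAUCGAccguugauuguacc
miR-181a-2-3p: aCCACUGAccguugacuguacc

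The hairpins of MIR181A1 and MIR181A2 follow, with both arms in capitals, because they show which rows tell the loci apart. The 5p arm is the same sequence in both, so a count of miR-181a-5p does not say which locus it came from, while the 3p arms do.
MIR181A1: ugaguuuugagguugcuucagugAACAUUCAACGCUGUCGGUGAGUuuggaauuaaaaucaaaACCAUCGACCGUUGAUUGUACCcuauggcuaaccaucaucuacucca
MIR181A2: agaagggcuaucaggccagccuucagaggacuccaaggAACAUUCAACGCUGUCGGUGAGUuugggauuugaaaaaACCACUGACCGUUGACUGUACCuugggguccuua

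In GENCODE release 29 (GRCh38), MIR181A1 lies at chr1:198859044-198859153 on the minus strand, 61 bases from MIR181B1, and both are in an intron of the long noncoding RNA gene MIR181A1HG. MIR181A2 lies at chr9:124692442-124692551 on the plus strand, 1158 bases from MIR181B2. That pair is in an intron of the noncoding gene MIR181A2HG, and on the opposite strand in introns of NR6A1, which encodes a nuclear receptor. MIR181C (chr19:13874699-13874808) and MIR181D (chr19:13874875-13875011) are 66 bases apart on the plus strand, in an intron of NANOS3.

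The xanthatin libraries held 204520 to 267956 miRNA counts and the control libraries 63965 to 80088, so a single read weighs more in the control libraries. Levels are given in CPM, the count divided by the TMM-scaled size of the library. On this scale, 3 counts equal 12.5 to 16.7 CPM in a xanthatin library and 34.7 to 39.9 CPM in a control library. Such floors, and the Poisson and Wilson intervals below, cover counting error only. The intervals of fold changes from the edgeR test also take in the spread between libraries. Of 5 hepatocyte marker names on a list, all 5 had a row, and their summed share of the counts was 2.74% to 3.33% in xanthatin libraries and 11.0% to 13.8% in control libraries. The list's members went both ways, with miR-122-5p and miR-148a-3p lower and miR-192-5p higher in xanthatin libraries.

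The family was a minor part of the vesicle miRNA in both groups, and its level did not differ beyond the spread between libraries. The 5 rows together took 0.117%, 0.154% and 0.154% of the miRNA counts in xanthatin libraries, against 0.317%, 0.192% and 0.136% in control libraries. The groups overlapped, because control replicate 3 lay among the xanthatin libraries. The mean share was 0.141% ± 0.022 in xanthatin and 0.215% ± 0.093 in control libraries (SD, n = 3 each; two-sided exact permutation p = 0.3, and 0.5 after Benjamini-Hochberg adjustment over the 5 shares compared here; the smallest p that 3 against 3 libraries allow is 0.1). As a share of the counts of known names only, the difference of xanthatin minus control was -0.059 percentage points (exact permutation p = 0.4). Over all rows it was -0.074. In every library the leading member was either miR-181a-5p or miR-181b-5p, except in control replicate 2, where miR-181a-2-3p held 49 counts against 46 of miR-181a-5p and 40 of miR-181b-5p.

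Enough counts for the edgeR quasi-likelihood test were present for 3 of the 5 rows, miR-181a-5p, miR-181b-5p and miR-181a-2-3p. None of these 3 passed at an adjusted p under 0.05, where 30.3% of the 254 tested miRNAs passed (13.4% higher and 16.9% lower in xanthatin libraries). At an unadjusted p under 0.05, 1 of the 3 passed (miR-181a-2-3p), against 44.9% of all tested. With DESeq2 and with limma-voom the count of members called was 1, again miR-181a-2-3p, against backgrounds of 44.9% and 31.9%. The CPM of the groups did not overlap for 1 of the 3, where that held for 54.7% of all tested miRNAs.

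**Figure D1:**
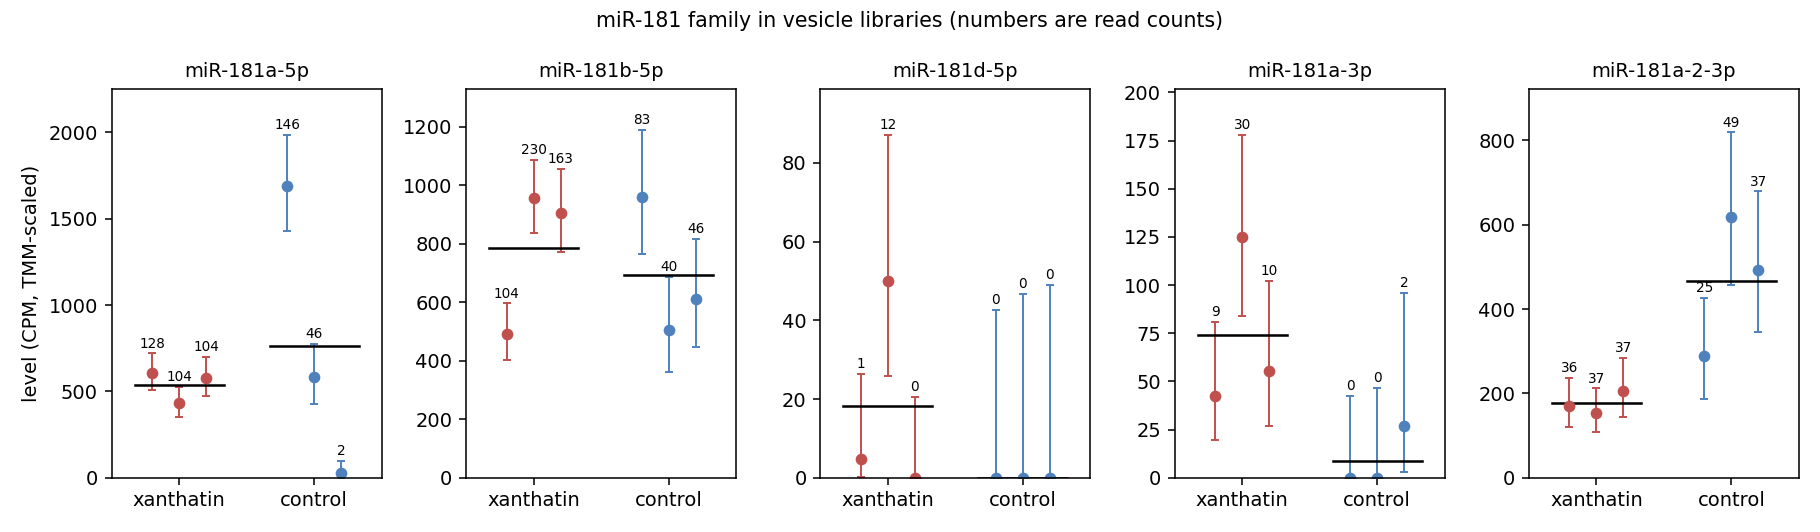
Level of each family member (CPM, linear axes that differ between panels) in the 3 xanthatin libraries (left in each panel, replicates 1 to 3) and the 3 control libraries (right). Points are libraries with exact 95% Poisson intervals, the number above each is its read count, and lines are group means; miR-181a-5p had 146, 46 and 2 counts in the control libraries, and miR-181d-5p was read in xanthatin libraries alone.

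miR-181a-5p, the form best known for repressing phosphatases of T cell receptor signalling, was steady in xanthatin libraries and far apart among control libraries. It had 128, 104 and 104 counts in xanthatin libraries, or 606, 432 and 578 CPM. In control libraries it had 146, 46 and 2 counts, or 1690, 581 and 26.6 CPM. Control replicate 1 stood above and control replicate 3 below the range of all xanthatin libraries, so the groups overlapped fully. The mean was 539 ± 93 CPM in xanthatin and 766 ± 847 CPM in control libraries (SD, n = 3 each). The log2 fold change was -0.51 (SE 1.10, 95% interval -3.16 to 2.14, edgeR adjusted p = 0.777), an interval that spans a fall and a rise of over 4-fold. Its direction rested on single control libraries: it was 0.75 without control replicate 1 (adjusted p = 0.66) and -0.95 without control replicate 3 (adjusted p = 0.216).

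The exact 95% Poisson intervals of the 3 control values of miR-181a-5p did not overlap, at 1427 to 1987 CPM in replicate 1, 426 to 775 CPM in replicate 2 and 3.22 to 96.1 CPM in replicate 3. Its coefficient of variation (SD over mean) was 17.3% in xanthatin and 111% in control libraries. Of the tested miRNAs within 2-fold of its level, 54 of 66 in xanthatin libraries and 2 of 65 in control libraries varied at least as much. The median variation of those neighbours was 32.5% in xanthatin and 39.9% in control libraries.

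Control replicate 3 was not low throughout. miR-181b-5p and miR-181a-2-3p had 46 and 37 counts there, and 15 of the 254 tested miRNAs were more than 5 times below both other control libraries in it, against 12 in control replicate 1 and 18 in control replicate 2. In single xanthatin libraries this number was 7 to 10. Counting known human names alone, control replicate 3 had the most, with 14 against 9 in control replicate 1 and 9 in control replicate 2.

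**Figure D2:**
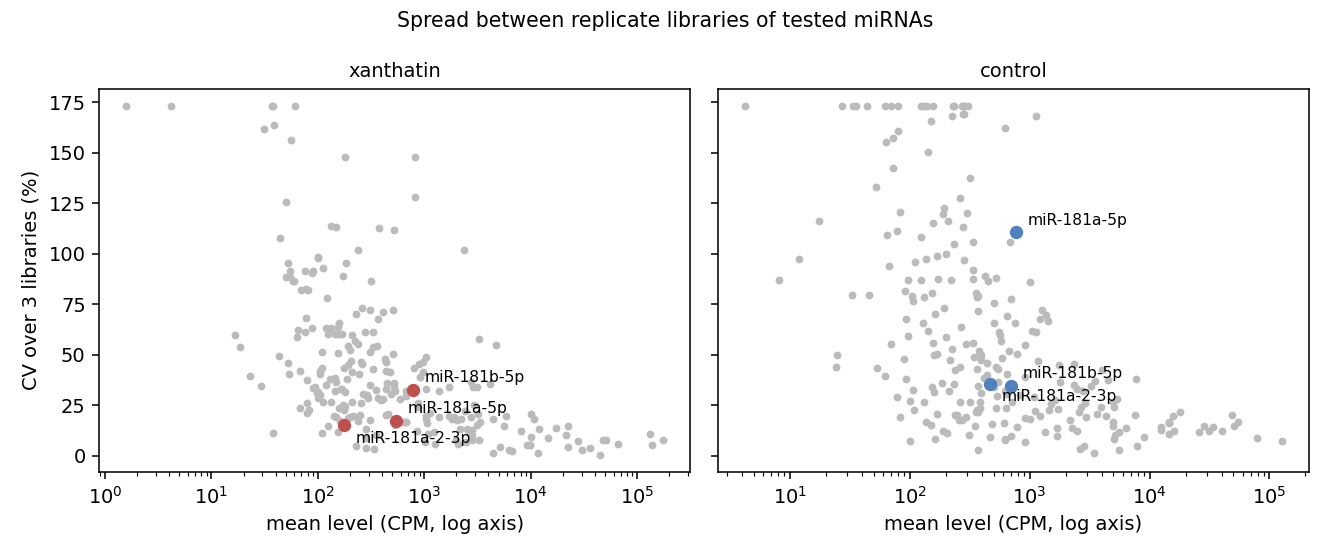
Coefficient of variation over 3 libraries (%) against mean level (CPM, log axis) for the tested miRNAs, in xanthatin libraries (left) and control libraries (right). Grey points are other miRNAs; miR-181a-5p is at 17.3% in xanthatin libraries and stands at 111% in control libraries, while miR-181b-5p is at 32.4% and 34.4%.

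miR-181b-5p, described in liver cells as induced by TGF-beta, was at a similar mean level in both groups. It had 104, 230 and 163 counts in xanthatin libraries, or 492, 956 and 905 CPM, against 83, 40 and 46 counts in control libraries, or 961, 505 and 612 CPM. Xanthatin replicate 1 lay with the lower control libraries and control replicate 1 with the higher xanthatin libraries. The mean was 785 ± 254 CPM in xanthatin and 693 ± 238 CPM in control libraries (SD, n = 3 each), a log2 fold change of 0.18 (SE 0.42, 95% interval -0.84 to 1.19, edgeR adjusted p = 0.794). With library totals in place of TMM factors the sign turned (-0.15). The interval leaves changes of up to about 2-fold in either direction undetected.

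The ratio of miR-181b-5p to miR-181a-5p within a library does not depend on the scaling between libraries. miR-181b-5p made up 44.8%, 68.9% and 61.0% of the counts of both in xanthatin libraries, and 36.2%, 46.5% and 95.8% in control libraries. The 95.8% of control replicate 3 was 46 of 48 counts (95% Wilson interval 86.0% to 98.8%), and no other library's interval reached it. The mean shares were 58.2% ± 12.3 in xanthatin and 59.5% ± 31.9 in control libraries (SD, n = 3 each; two-sided exact permutation p = 0.9, adjusted 0.9). Without control replicate 3 the difference of xanthatin minus control was 16.9 percentage points, and with all libraries it was -1.28.

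miR-181d-5p, from the chromosome 19 locus, was at the edge of detection. It had 1, 12 and 0 counts in xanthatin libraries and 0 counts in all control libraries. The 12 counts of xanthatin replicate 2 made up nearly all of its reads. That library also held the most miR-181b-5p (230 counts), from which miR-181d-5p differs by 1 base. Xanthatin replicate 3 held 163 counts of miR-181b-5p and 0 of miR-181d-5p. Whether these members shared reads was not tested. Its rate of 20.6 CPM over the xanthatin libraries was 1.65 times a floor of 3 counts over the control libraries (12.5 CPM). That multiple leaves out the error of its 13 xanthatin counts and is not a lower limit. Without xanthatin replicate 2 it had 1 count, and no fold is given. With too few counts for the test, it had an adjusted p = 0.386 when no count filter was used.

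The 3p arms of miR-181a lay in opposite directions. miR-181a-2-3p, from the chromosome 9 hairpin, had 36, 37 and 37 counts in xanthatin libraries, or 170, 154 and 205 CPM, against 25, 49 and 37 counts in control libraries, or 289, 619 and 492 CPM. The raw counts were thus alike, 110 in xanthatin and 111 in control libraries in all, while the deeper xanthatin libraries lay below all control libraries in CPM. The mean was 177 ± 26.4 CPM in xanthatin and 467 ± 166 CPM in control libraries (SD, n = 3 each), a log2 fold change of -1.40 (SE 0.46, 95% interval -2.51 to -0.28). It missed the threshold with edgeR at an adjusted p = 0.0627.

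The side of the threshold on which miR-181a-2-3p fell depended on the processing. It passed with library totals only (-1.75, adjusted p = 0.0323, where 32.3% of all tested miRNAs passed), with DESeq2 (-1.33, adjusted p = 0.0295) and with limma-voom (-1.35, adjusted p = 0.0419). It also passed without control replicate 1, its lowest control library (-1.70, adjusted p = 0.0483, where 19.3% of 337 tested passed). Without any other library the adjusted p was 0.128 to 0.238. In each of the 17 other fits its log2 fold change was negative. Shares of whole marker lists went both ways. The blood and serum names, with 5 of 6 having a row, took 0.0556% to 0.0705% of xanthatin counts. They took 0.619% to 1.19% of control counts, nearly all of it miR-486-5p. miR-150-5p was at 0 in all xanthatin and 2 control libraries, and the red cell marker miR-451a at 9 counts or fewer in each library. The stromal and endothelial names, with 6 of 6 having a row, took 0.0116% to 0.0215% of xanthatin counts and 0.124% to 0.333% of control counts, and miR-214-3p and miR-145-5p were at 0 in all xanthatin libraries, with 39, 0 and 0 counts and 5, 0 and 3 counts in control libraries. The hepatocyte names also took a smaller share, 2.74% to 3.33% of xanthatin counts against 11.0% to 13.8% of control counts. The part of any of these lists in the level of miR-181a-2-3p was not tested.

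miR-181a-3p, from the chromosome 1 hairpin, had 9, 30 and 10 counts in xanthatin libraries (42.6, 125 and 55.5 CPM) and 0, 0 and 2 counts in control libraries. The ratio of the groups' count rates was 9.33, with an exact 95% Poisson interval of 2.45 to 79.2 on 2 control counts. Replicate 2 gave 30 of the 49 xanthatin counts, and without it the ratio was 5.84 (1.41 to 51.7). It was 5.98 without control replicate 1. Both control counts were in control replicate 3. Without that library, the xanthatin rate was 4.28 times a floor of 3 counts over the other control libraries. That multiple leaves out the error of the xanthatin counts. For the control libraries with 0 counts, the exact 95% Poisson upper limits of 42.7 and 46.6 CPM reached the 42.6 CPM of xanthatin replicate 1. It had too few counts for the test. Without the count filter its log2 fold change was 3.15 (SE 2.12, adjusted p = 0.391), where 6.65% of 1007 rows passed. miR-181a-3p, miR-181b-5p and miR-181d-5p each had their highest xanthatin CPM in replicate 2, where miR-181a-5p and miR-181a-2-3p had their lowest.

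Set side by side within a library, the 3p arms compare the chromosome 1 and chromosome 9 hairpins without any scaling. miR-181a-3p made up 9 of 45, 30 of 67 and 10 of 47 counts of both 3p arms in xanthatin libraries, or 20.0%, 44.8% and 21.3%. In control libraries it made up 0 of 25 counts, which allows a share of up to 12.0%, 0 of 49 counts, which allows up to 6.12%, and 2 of 39 counts, or 5.13%. All xanthatin libraries lay above all control libraries, with means of 28.7% ± 14.0 in xanthatin and 1.71% ± 2.96 in control libraries (SD, n = 3 each). The two-sided exact permutation p of 0.1 is the smallest that this design allows (0.5 adjusted over the 5 shares). The Wilson intervals of xanthatin replicates 1 and 3 began at 10.9% and 12.0%, below the upper ends of those of control replicates 1 and 3, 13.3% and 16.9%. This share was chosen after its values were seen.

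**Figure D3:**
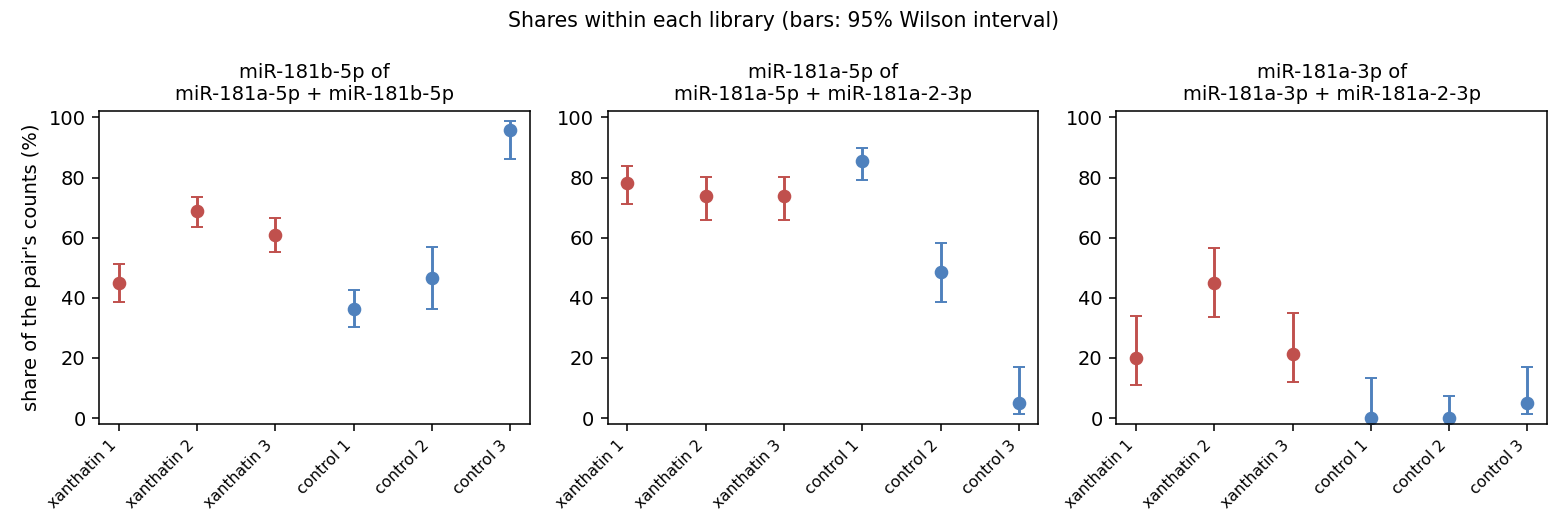
Shares of read counts within each library (%), xanthatin replicates 1 to 3 left and control replicates 1 to 3 right, with 95% Wilson intervals. The share of miR-181b-5p and that of miR-181a-5p overlap between groups, with control replicate 3 apart at 95.8% and 5.13%, while miR-181a-3p is at 20.0% or more of the 3p arms in xanthatin libraries and at 5.13% or less in control libraries.

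The 3p arms together made up 16.2%, 16.2% and 15.0% of the family's counts in xanthatin libraries and 9.84%, 36.3% and 44.8% in control libraries. The xanthatin libraries were close to each other at 15.8% ± 0.71, inside the range of the control libraries at 30.3% ± 18.2 (SD, n = 3 each; two-sided exact permutation p = 0.4, adjusted 0.5). miR-181a-5p was also set against miR-181a-2-3p, the 3p arm of the chromosome 9 hairpin, although reads of the 5p arm can come from the chromosome 1 hairpin too. The 5p arm took 78.0%, 73.8% and 73.8% of their counts in xanthatin libraries, against 85.4%, 48.4% and 5.13% in control libraries (exact permutation p = 0.4, adjusted 0.5; also chosen after its values were seen). The 3p arm outnumbered the 5p arm in control replicate 3, with 37 counts against 2, and narrowly in control replicate 2, with 49 against 46.

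**Figure D4:**
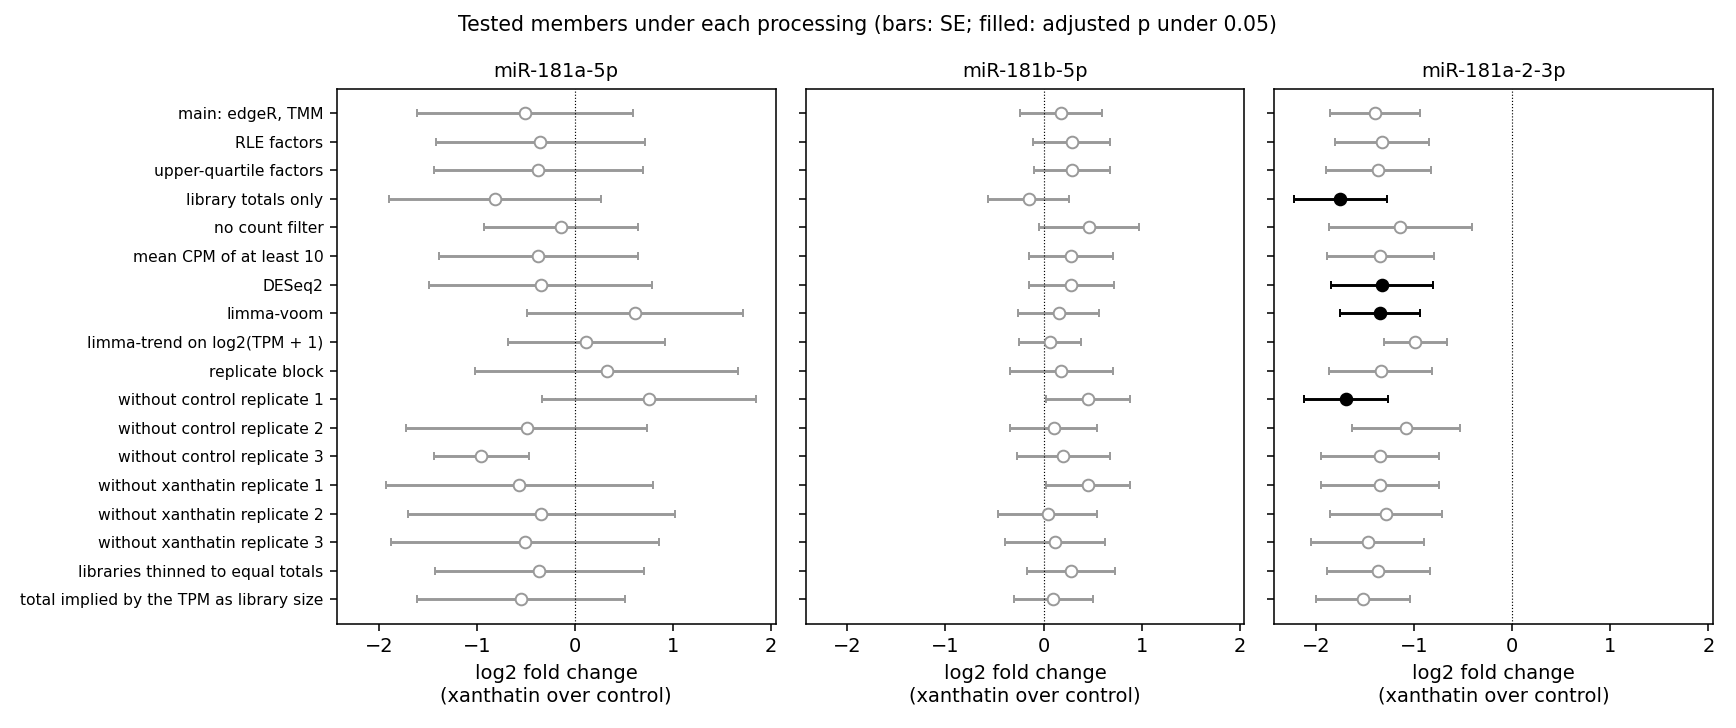
log2 fold change (xanthatin over control) of the 3 tested members in the edgeR fit with TMM factors and in 17 other fits, with SE; filled points passed at an adjusted p under 0.05. miR-181a-5p and miR-181b-5p passed in none of the fits drawn and cross 0, and miR-181a-2-3p is negative in each and passed in 4.

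The miRNAs with a profile most like miR-181a-5p were looked for by the root-mean-square difference of centred log2 CPM over the 6 libraries, which describes these libraries and no more. The nearest 5 known miRNAs outside the family were miR-339-5p (0.58), miR-642a-3p (0.83), miR-93-5p (0.93), miR-30a-3p (1.20) and miR-365b-5p (1.36). In its own family, miR-181b-5p was at 1.75 and miR-181a-2-3p at 2.23, beyond these 5. The 5 were picked as the nearest, so that order is no finding about the family. miR-339-5p averaged 350 ± 36.0 CPM in xanthatin and 360 ± 290 CPM in control libraries (SD, n = 3 each). It was also steady in one group and spread in the other, as its choice by profile entails.

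The genes of miR-23a, miR-27a and miR-24-2 lie 38039, 38181 and 38339 bases from MIR181C on chromosome 19. Of their 4 tested rows none passed, against 30.3% of all tested miRNAs (median log2 fold change 0.37, against -0.16 over all tested; 0 of 4 at an unadjusted p under 0.05 with edgeR, against 44.9%). With DESeq2 and limma-voom 0 passed, against 44.9% and 31.9% of all tested, while without control replicate 1 it was 1 of 5, against 19.3%. miR-24-3p, which also comes from a copy on chromosome 9, was at 2175 ± 281 CPM in xanthatin and 2326 ± 815 CPM in control libraries, and miR-27a-3p at 1252 ± 69.9 and 697 ± 541 CPM (SD, n = 3 each).

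The counts of the remaining lists stand against 13.4% higher and 16.9% lower over all 254 tested miRNAs, whose median log2 fold change was -0.16. Of 5 tested miRNAs known from lymphocytes and other leukocytes, the field in which miR-181a was first studied in depth, 1 rose (miR-146a-5p, 1.28) and 2 fell (miR-92a-3p, -0.64, and miR-92a-1-5p, -2.42), with a median log2 fold change of -0.64. Of the miRNAs listed as raised in hepatocellular carcinoma, 10 were tested, of which 5 rose and none fell, with a median of 0.87. miR-224-5p, the most abundant, was at 0.87 and miR-25-3p at 0.52 (adjusted p = 0.0513). Among 5 tested hepatocyte markers, 2 fell (miR-122-5p, -5.48, and miR-148a-3p, -1.29) and 1 rose (miR-192-5p, 1.22), with a median of -1.29. The 1 tested blood marker fell (miR-486-5p, -3.52), and of 2 tested stromal and endothelial markers miR-143-3p fell (-4.26) while miR-126-3p was at -1.86 (adjusted p = 0.075), a median of -3.06.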

How the data were processed

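Small RNA of 18 to 30 nt was taken from vesicles pelleted at 120000 x g for 70 min, per the labels' protocols. The authors' table gives, per the file headers, a count and a TPM value for each mature miRNA name and library. By their values, the counts are whole and unscaled, and the TPM is that count over 1 constant per library. The constants imply library totals of 9408297 to 31859012, far above the 63965 to 267956 miRNA counts. The submitters' processing notes name the build hg38; the aligner, the counter and the miRNA database were not given in the sources used here. Libraries were grouped by the labels into 3 xanthatin and 3 control libraries.

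Counts were tested by the quasi-likelihood F test of edgeR 4.0.16 in R 4.3.3, using TMM factors and the default filter (minimum count 10), which left 254 of 1007 rows. Benjamini-Hochberg adjustment ran over all 254, and calls needed an adjusted p under 0.05. The SE was taken as |log2 fold change| over the square root of F. Shares were compared by exact permutation. Alternatives used DESeq2 1.42.0, limma 3.58.1, other scalings and filters, a replicate block and each library left out; thinned libraries and the total implied by the TPM were added after the data were seen.

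The members and the 6 lists were chosen with earlier results of these data known. The named miRNAs are all family rows, the 5 known miRNAs nearest in profile to miR-181a-5p, the 2 most abundant of each list and names with the family seed. In addition, miR-92a-1-5p, miR-192-5p, miR-451a, miR-214-3p and miR-145-5p were named after their values were seen.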

Additional observations from a re-analysis of the deposited data

How the results depend on the processing

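Over all fits 54 to 114 miRNAs were called, against 77 as reported (56 to 69 with 1 library left out). The count of family members called was 0 as reported, 1 with library totals only, DESeq2 or limma-voom, and 0 to 1 with 1 library left out; the cause was not tested. The log2 fold change of miR-181a-5p reversed with limma-voom (0.61), limma-trend on log2(TPM + 1) (0.11) and the replicate block (0.32), and ran from -0.95 to 0.75 with 1 library left out. That of miR-181b-5p reversed with library totals only (-0.15), a setting that moved the median of all tested miRNAs from -0.16 to -0.49; with no count filter, where 1007 rows were tested, that median was 0.60. The difference in the share of miR-181b-5p ran from -12.9 to 16.9 percentage points with 1 library left out. The other shares kept their direction under each alternative tried. No pairing by replicate number was seen: deviations of same-numbered libraries correlated at 0.089, -0.077 and -0.14, and not every library correlated best with its own number. With 3 libraries per group, such correlations cannot show that same-numbered libraries were prepared apart. With the replicate block 54 miRNAs and 0 family members were called. Replicate libraries differed by more than sampling noise (chi-square per degree of freedom 18.6 to 26.9). Depth limits the members most in control libraries, where miR-181a-3p had 0, 0 and 2 counts and miR-181d-5p had 0 in each.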
